A study of Mus musculus with 196 samples.

Results

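Nodal signalling was followed through 8 of its genes: the ligand Nodal, the co-receptor Tdgf1 (also called Cripto), the secreted inhibitors Lefty1, Lefty2, Cer1 and Fst (follistatin), the signal transducer Smad2 and its DNA-binding partner Foxh1. They were picked by name from the gene column of the deposited expression table and make up 8 of its 25706 endogenous genes. The samples were cells of mouse resembling primordial germ cells, the founders of the germline, that are derived in culture from pluripotent cells (PGCLCs), together with 3 libraries of germ cells from embryos. The study concerned ZGLP1, a GATA-like nuclear factor, in the choice of the oogenic fate, and it varied Zglp1, Stra8 (a factor that germ cells need for meiotic initiation), BMP2 and retinoic acid (RA).

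All PGCLC lines were of a 129S1 and C57BL/6 cross and carried a pair of fluorescent reporter transgenes, Prdm1-mVenus and Dppa3-ECFP. H18 is the line without a further change (27 libraries). Zko_E5 and Zko_G10 are Zglp1-/- clones (26 libraries each), and Sko_B6 and Sko_F6 are Stra8-/- clones (16 each). OE_A2 (64 libraries) is 1 clone that carries piggyBac transgenes for the Zglp1 coding sequence with an mCherry tag behind a tetracycline-responsive promoter, and for the rtTA activator behind the EF1a promoter, so doxycycline (Dox) switches the transgene on. OESko_A11 (16 libraries) is 1 clone with those transgenes on a Stra8-/- background. Sorted cells were grown on m220 feeder cells, which display membrane-bound SCF, without an inducer (control), or with BMP2, RA, both (B2RA), Dox, or Dox and RA (DoxRA), and were sorted again by reporter before RNA was taken. OE_A2 cells were also grown with a compound that the labels call BMS, with or without Dox (BMSDox), in medium without serum (SerumMinus), and in that medium with a compound called WIN, with or without Dox (SerumMinusWINDox and SerumMinusWIN). Germ cells of embryos came from other reporter mice, with Dppa3-EGFP at E9.5 and Ddx4-RFP at E14.5 and E15.5, and each age is 1 library.

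Nodal is a secreted ligand of the TGF-beta superfamily that keeps the early epiblast pluripotent and patterns mesoderm and endoderm. It binds activin receptors together with an EGF-CFC co-receptor such as Tdgf1, the receptors phosphorylate Smad2 and Smad3, and these enter the nucleus and act with partners such as Foxh1. Lefty1 and Lefty2 are themselves targets of the pathway and block Nodal and its co-receptor, so their RNA is often read as a sign of pathway activity. In the fetal gonad, Nodal and Tdgf1 have been described mainly in male germ cells.

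Values are reads of the 3' ends of transcripts, scaled to 1000000 reads on endogenous genes in each library (RPM). The 194 libraries held between 877040 and 5196593 reads, and 1 read was worth 0.192 to 1.14 RPM. Of the 98 groups of PGCLC libraries nearly all held 2 libraries, and no label says that these came from separate cultures, so a test measures only the spread between such libraries. Expression was compared as log2(RPM + 1), which understates the change of low genes, in 1 limma model of all PGCLC libraries. A gene was tested when 2 or more of the libraries compared reached 10 RPM, and a change passed the test at a Benjamini-Hochberg adjusted p under 0.05, taken over all genes tested, with a size of at least 1. Adjusted p-values below are from that limma model, and errors of changes are standard errors. The labels give 2 RNA extraction protocols, and all 43 libraries of day 9 were made under the second. The mCherry tag of the transgene stood at a mean of 284 RPM in OE_A2 control cells of day 9, 1292 with Dox and 3165 with DoxRA, and it was 0 on that day in H18 and the Zglp1 knockout clones (at most a mean of 0.80 RPM on other days). The knockout clones are named here by their labels, which the RNA did not check. In Zglp1-/- clones given B2RA at day 9 the tag of Zglp1 itself was 32.7 and 20.3 RPM in Zko_E5 and 16.3 and 25.6 RPM in Zko_G10, against 48.9 and 53.6 RPM in H18. Stra8 in the Stra8-/- clones given B2RA was 423 and 688 RPM in Sko_B6 and 52.7 and 67.0 RPM in Sko_F6, against 658 and 805 RPM in H18. RNA of both deleted genes was thus read in clones labelled as lacking them, and reads of a 3' end outside a deleted part say nothing of the deletion, whose place is not given in the sources used here. All 9 germ cell markers checked were detected in every PGCLC group of day 9, with summed levels between 1003 and 3406 RPM per library.

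For 3 of the 8 genes, namely Nodal, Tdgf1 and Cer1, an upstream window from a RefSeq promoter table was used. Each window holds 250 bases before the start to 50 after it. Windows of 1 chromosome were left out of the search, so a gene missing here may still have an entry. The stretch of the Tdgf1 window that holds its matches is shown because Tdgf1 fell in more of the day 9 comparisons below than any other of the 8 genes. It runs from 150 to 76 bases before the start (GRCm38.p6, chr9:110946234-110946308, minus strand), and capitals mark 2 matches to a Foxh1-type motif (TGTNNATT) and between them 1 match to a SMAD box (GTCTG), all read here on the opposite strand.
Tdgf1: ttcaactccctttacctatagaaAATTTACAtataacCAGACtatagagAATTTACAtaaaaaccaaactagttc
The Foxh1-type matches begin 127 and 101 bases before the start and the SMAD box begins 113 bases before it. Searched on both strands, the Foxh1-type motif was found in 12.2% of 32851 promoter windows of this length and the SMAD box in 49.6%. The Cer1 window held 1 SMAD box, beginning 213 bases before the start. No window of the 3 genes held a TCF-type (CTTTGA, 16.0% of windows), RA receptor half-site (AGGTCA, 16.3%) or GATA-type (AGATAA, 11.2%) match, and the motifs searched were not found in the Nodal window. These are letter matches, and no binding was measured.

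The 8 genes fell into a detected and a barely detected set. Smad2 was at or above 10 RPM in all 191 PGCLC libraries (40.5 to 141 RPM, median 77.1). Lefty1 (Entrez 13590, mm10 chr1:180935022-180938400, plus strand) reached 10 RPM in 181 libraries, with a lowest value of 0.797, a median of 62.8 and a highest value of 507 RPM. Nodal (18119, chr10:61417972-61425338, plus) reached it in 162 (0 to 55.1 RPM, median 20.8), Tdgf1 (21667, chr9:110939603-110946158, minus) in 157 (0 to 391 RPM, median 32.2), and Lefty2 (320202, chr1:180893108-180899103, plus) in 146 (0 to 353 RPM, median 25.2). Fst (14313, chr13:114452290-114458951, minus) reached it in 21 libraries and had a median of 2.15 RPM. Cer1 (12622, chr4:82881751-82885148, minus) gave a read in 13 libraries and Foxh1 (14106, chr15:76668225-76669948, minus) in 28, never more than 2 reads for Foxh1. Cer1 and Foxh1 could therefore be tested in no comparison, and most statements below rest on Nodal, Tdgf1, Lefty1 and Lefty2, with Smad2 and Fst where they passed the filter.

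**Figure D1:**
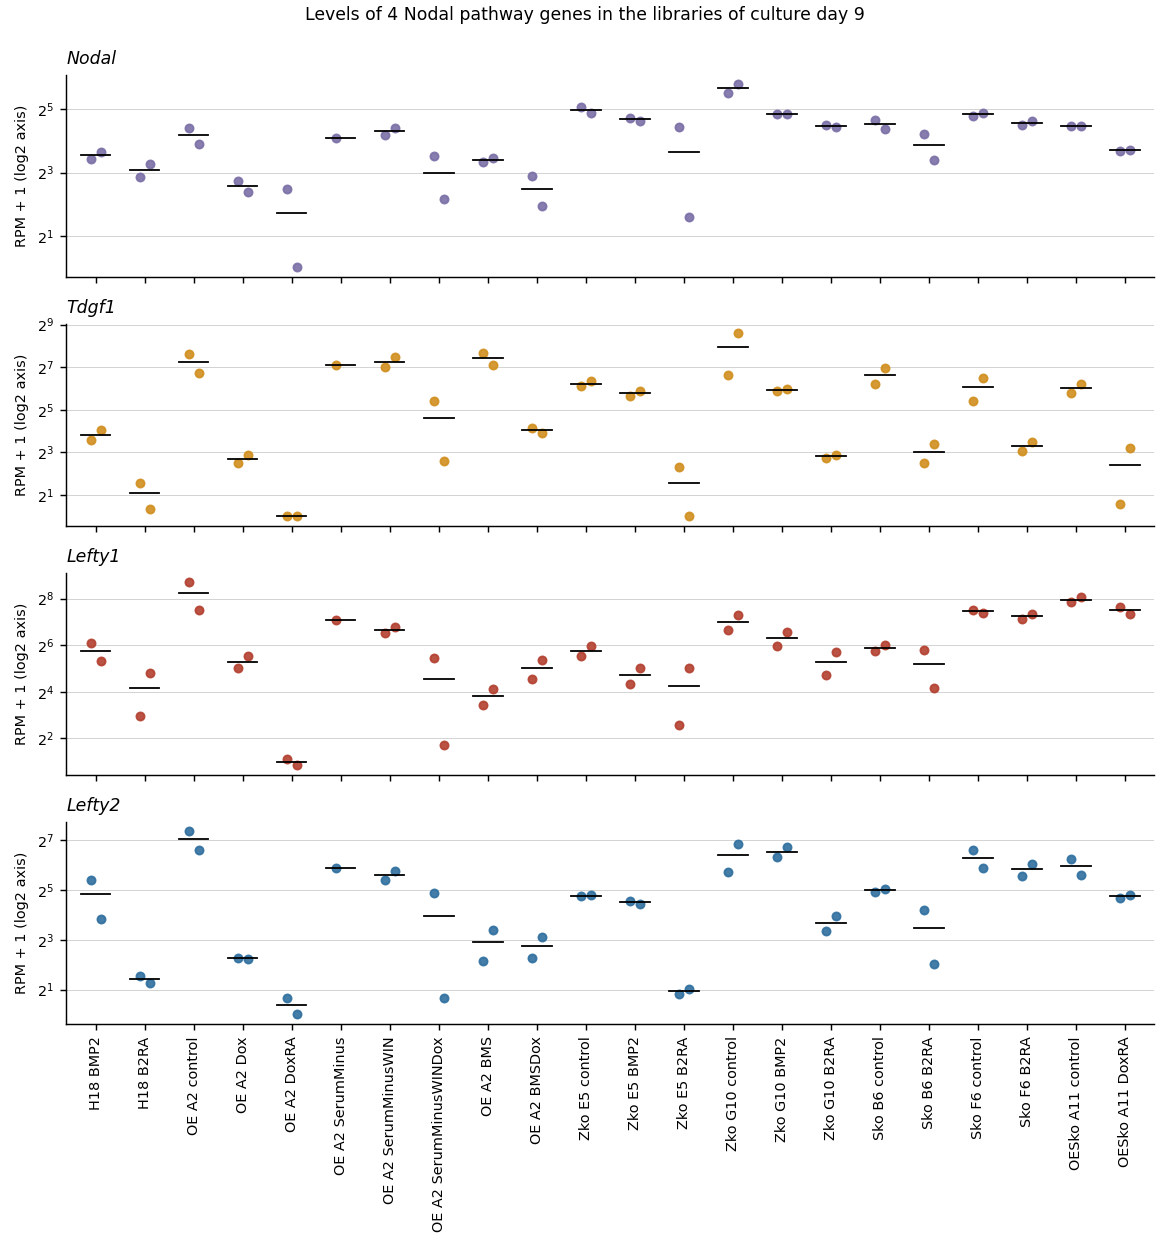
Levels of Nodal, Tdgf1, Lefty1 and Lefty2 in every library of day 9 (points; RPM + 1 on a log2 axis) with the group mean (bar), by line and treatment. Tdgf1 is at or below 10.3 RPM in every library with B2RA or DoxRA, while Lefty1 stays between 138 and 266 RPM in Sko_F6 and OESko_A11 cells given B2RA or DoxRA or left untreated.

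Without an inducer, Tdgf1 and Lefty2 rose between day 4 and day 9 of culture. Over the 6 lines with both days (12 libraries against 12), Tdgf1 was higher by 1.31 ± 0.26 (adjusted p = 1.5e-05) and Lefty2 by 1.26 ± 0.27 (adjusted p = 5.1e-05), against a background in which 10.6% of the 10189 genes tested passed and 9.26% rose. Tdgf1 had a positive change in 6 of 6 lines and Lefty2 in 5 of 6. Lefty1 gave 0.82 ± 0.25 (adjusted p = 0.0045, under the size threshold), positive in 4 of 6 lines, and Nodal gave 0.15 ± 0.19. The lines did not start or end alike: in OE_A2 Lefty2 went from 16.6 and 26.4 RPM at day 4 to 165 and 97.4 RPM at day 9, whereas in Zko_E5 it was 34.6 and 30.9 RPM at day 4 and 25.7 and 26.8 RPM at day 9. At day 0 the Zglp1 knockout clones held more Lefty2 than any later library, 322 and 351 RPM in Zko_E5 and 318 and 353 RPM in Zko_G10, with Lefty1 at 463 and 507 RPM and at 377 and 384 RPM. Over the same days 5 of 8 feeder and stroma markers that passed the filter rose, in Zko_E5 from a sum of 217 to 277 RPM at day 4 (Thy1 at 0) to 803 to 835 RPM at day 9 (none at 0), and in OE_A2 the sum went from 276 to 396 RPM (Lum, Postn and Thy1 at 0) to 224 to 245 RPM (Lum at 0). Their part in the result was not tested. Between day 0 and day 3 of OE_A2 none of the 5 genes tested passed (3.11% of all genes tested did), and Tdgf1 stood at 226 and 184 RPM and then at 118 and 77.7 RPM.

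In the embryo the same transcripts were low, and Lefty2 and Tdgf1 had no read in the oocytes. Lefty1 measured 5.26 RPM in E9.5 germ cells and 0.303 and 0.357 RPM in oocytes of E14.5 and E15.5, Lefty2 measured 4.54 RPM and then 0 and 0, and Tdgf1 2.15 RPM and then 0 and 0. Nodal was at 6.22, 1.82 and 1.07 RPM, and 3 reads were worth 0.718, 0.909 and 1.07 RPM at the 3 ages. With 1 library per age, and mice of another strain, these values have no replicate check and were not compared with the cultures.

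Switching on Zglp1 was followed by lower Nodal, Tdgf1, Lefty1 and Lefty2 at day 9. Lefty2 stood at 165 and 97.4 RPM in the control and at 3.87 and 3.64 RPM with Dox, a change of -4.75 ± 0.66 (adjusted p = 1.3e-08). Tdgf1 stood at 199 and 106 RPM against 4.73 and 6.37 RPM (-4.49 ± 0.64, adjusted p = 2.8e-08). Lefty1, at 422 and 181 RPM in the control, was 31.4 and 44.9 RPM with Dox (-2.85 ± 0.62, adjusted p = 0.00015). Of the 4 genes the ligand had the smallest change, from 20.3 and 14.0 RPM to 5.59 and 4.25 RPM (-1.60 ± 0.46, adjusted p = 0.0042), and Nodal no longer passed when either control replicate 1 or Dox replicate 2 was left out (-1.35 and -1.44). The groups, of 2 libraries each, did not overlap for any of these genes, and the share of all genes without overlap is not given here. Smad2 gave 0.19 ± 0.21 (95% interval -0.22 to 0.60). Over all 9372 genes tested 22.8% passed and 9.38% fell. Markers of pluripotency moved the same way: the summed level of 8 of them, a list that holds none of the 8 pathway genes, was 972 to 1050 RPM in the control and 249 to 251 RPM with Dox, with no marker at 0 in either. Their part in the result was not tested, and in bulk libraries fewer cells of a type and less RNA per cell cannot be told apart.

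With Dox and RA together, Tdgf1, Lefty1 and Lefty2 were at or near 0 by day 9. No read of Tdgf1 was left in either DoxRA library, which puts it at least 239-fold lower than the control (floor of 3 reads over the group), and its fitted change was -7.19 ± 0.64 (adjusted p = 2.8e-17). Lefty1 fell to 1.16 and 0.797 RPM (-7.14 ± 0.62, adjusted p = 5.7e-18) and Lefty2 to 0.578 and 0 RPM (-6.67 ± 0.66, adjusted p = 3.8e-15). Nodal fell to 4.62 and 0 RPM (-2.92 ± 0.46, adjusted p = 4.7e-08). Of 9517 genes tested 48.2% passed and 22.5% fell, and pluripotency markers summed to 78.9 to 104 RPM. Feeder and stroma markers (11 genes, Lum at 0) summed to 89.8 RPM in DoxRA replicate 1 and 566 RPM in replicate 2, against 224 to 245 RPM in the control, and their part in the result was not tested. Setting DoxRA against Dox alone, 14.9% of 9121 genes passed and 10.6% fell. Lefty1 fell further with RA added (-4.29 ± 0.62, adjusted p = 2.7e-08), and Smad2 gave 0.21 ± 0.21. Tdgf1, Lefty2 and Nodal were already under 10 RPM with Dox and were not tested there.

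With BMS alone, Lefty1 and Lefty2 fell at day 9, while Tdgf1 and Nodal did not pass. At that day Lefty1 stood at 9.75 and 16.6 RPM and Lefty2 at 3.38 and 9.43 RPM, below both control libraries. The changes were -4.34 ± 0.62 for Lefty1 (adjusted p = 1.5e-06) and -4.24 ± 0.66 for Lefty2 (adjusted p = 1.4e-05). Tdgf1 stayed at 204 and 137 RPM, overlapping the control, with a change of 0.20 (95% interval -1.08 to 1.48), and Nodal stood at 9.0 and 10.1 RPM (-0.76, interval -1.69 to 0.16, adjusted p = 0.42). Smad2 gave -0.70 ± 0.21 (adjusted p = 0.04), under the size threshold. Few genes passed here: 2.46% of the 9037 tested passed and 1.91% fell, or 1.05% with TMM scaling, a common normalisation for composition. That number is unstable: it was 222 genes with all libraries, 3 without control replicate 1, 20 without BMS replicate 1, 95 without control replicate 2 and 403 without BMS replicate 2, and Lefty1 passed in each of these fits (-3.73 to -4.94). Among genes that respond to RA, Stra8 fell by 7.12 and Crabp2 by 1.87 on the log2 scale. With the same genes tested, Crabp2 did not pass without either control replicate or without BMS replicate 1 (-1.66 to -2.08). Stra8 had fallen with BMS by day 4 (-4.63 ± 0.69, adjusted p = 7.5e-06), and its mean was 332 RPM in the control and 1.38 RPM with BMS at day 9. Other RA response genes were under the filter at day 9. Mean Cyp26a1 was higher with BMS (6.74 against 4.21 RPM), as was Cyp26b1 (1.00 against 0.539), while Dhrs3 (0.538 against 4.54) and Rarb (0.375 against 1.78) were lower. At day 7 Cyp26a1 gave 1.97 ± 0.62 (adjusted p = 0.24). Crabp2 also fell when RA was added to Dox (-2.19 ± 0.49), so its fall with BMS is no sign of less RA response. Pluripotency markers summed to 1354 to 1379 RPM, above the control. Feeder and stroma markers summed to 383 to 531 RPM (Lum at 0), above the 224 to 245 RPM of the control, and their part in the result was not tested. The mCherry tag of the transgene stood at a mean of 69.7 RPM with BMS and 284 RPM in the control, and its part was not tested either.

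The Lefty genes passed with BMS at day 9 and at no earlier day, though a difference between days was not tested. None of the 5 genes tested passed at days 4, 5 or 7, where 0.199%, 0.0927% and 0.125% of all genes did. At day 7 Lefty1 was 72.5 and 64.3 RPM with BMS against 102 and 232 RPM without (-1.16, interval -2.39 to 0.07), and Lefty2 was 41.2 and 25.5 RPM against 31.2 and 64.8 RPM. Tdgf1 was then 287 and 94.5 RPM against 48.8 and 62.2 RPM (1.56 ± 0.64, adjusted p = 0.51). The library with 287 RPM of Tdgf1 also held the highest Cer1 value of the series, 24.6 RPM or 62 reads, together with the mesendoderm genes T at 27.8, Eomes at 28.9 and Foxa2 at 25.4 RPM. Other genes of mesendoderm were low in it, with Gsc at 3.57, Mixl1 at 1.59 and Mesp1 at 0.396 RPM, and Eomes was also 27.8 RPM in a control library of day 5. The other BMS library of day 7 had Cer1 at 7.14 RPM.

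**Figure D2:**
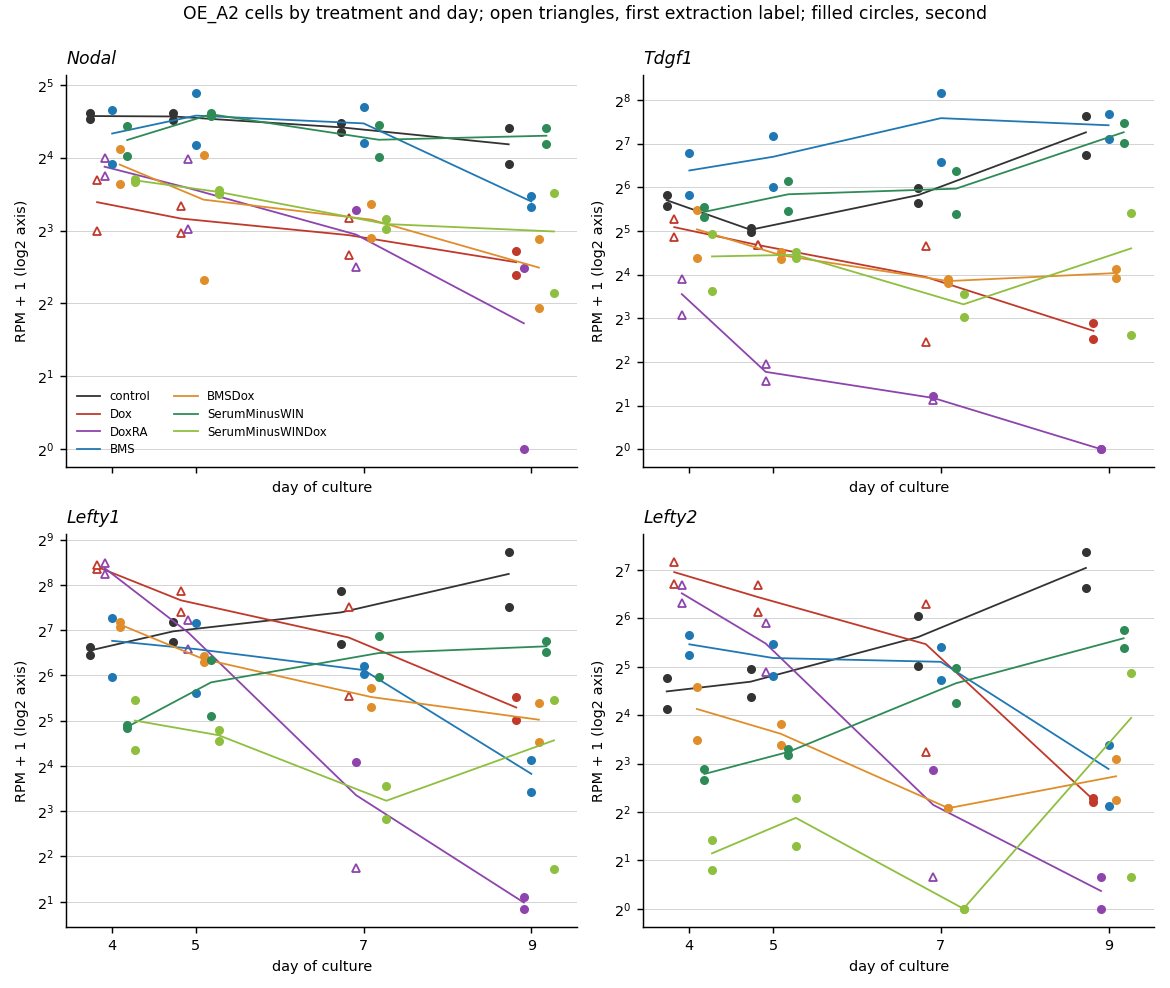
OE_A2 libraries by day of culture, treatment (colour) and extraction label (open triangles, first; filled circles, second), in RPM + 1 on a log2 axis, with lines through group means. At day 9 with BMS, Lefty1 (9.75 and 16.6 RPM) and Lefty2 (3.38 and 9.43 RPM) lie below both control libraries while Tdgf1 overlaps the control, and the open triangles of Dox and DoxRA at day 4 lie above the control for both Lefty genes.

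On the BMS background Dox lowered Tdgf1 at day 9, when the Lefty genes were also low in the BMS cultures without Dox. Tdgf1 was 16.6 and 14.2 RPM with BMSDox against 204 and 137 RPM with BMS (-3.36 ± 0.64, adjusted p = 2.1e-05). Lefty1 was 22.2 and 40.7 RPM with BMSDox against 9.75 and 16.6 RPM (1.18 ± 0.62, adjusted p = 0.13), and Nodal and Lefty2 were under the filter. Of 9279 genes tested 21.2% passed and 6.39% fell (11.0% with TMM scaling, which moved the median change of all genes by -0.28). Tested directly, the response to Dox differed with BMS for Lefty1 by 4.03 ± 0.87 (adjusted p = 0.0048) and for Lefty2 by 4.67 ± 0.94 (adjusted p = 0.0022), where 1.64% of 10015 genes passed and 1.33% were positive. Lefty2 reached the filter in that test only with the control libraries, the group where it was high. Its difference therefore mostly repeats its fall with Dox in control medium. For Tdgf1 the difference was 1.13 (interval -0.68 to 2.94). The calls of both Lefty differences rest on OE_A2 control replicate 1, the library with 422 RPM of Lefty1: without it the differences were 3.42 and 4.29 and neither passed. The transgene was not at the same level in the groups compared, since the mCherry tag stood at a mean of 10340 RPM with BMSDox and 69.7 RPM with BMS, against 1292 RPM with Dox and 284 RPM in the control, and its part in the difference was not tested. With BMS added to Dox, none of the 3 genes tested passed at day 9 (7.49% of all genes tested did). Dox with BMS lowered Tdgf1 at days 5 and 7 as well (-2.14 ± 0.64 and -3.52 ± 0.64), as it did Nodal (-1.35 ± 0.46 and -1.32 ± 0.46), and at day 7 also Lefty2 (-2.99 ± 0.66), where 11.6% and 16.7% of all genes passed.

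In medium without serum, with WIN, none of the 4 genes passed against the control and Dox lowered all of them. No gene of the 5 tested passed for SerumMinusWIN against control at day 9, where limma called 0.0220% of 9091 genes (2 genes, or 12 by edgeR, and 459 had an unadjusted p below 0.05). Lefty1 was 90.0 and 108 RPM (-1.48, interval -2.71 to -0.26, adjusted p = 0.80) and Lefty2 was 40.9 and 53.4 RPM (-1.42, interval -2.74 to -0.10, adjusted p = 0.93). These intervals are not corrected for the number of genes tested. The single SerumMinus library, without WIN, had Lefty1 at 135 RPM, Lefty2 at 57.9 RPM and Tdgf1 at 136 RPM. With Dox in SerumMinusWIN, 23.1% of 9326 genes passed and 9.71% fell, among them Tdgf1 (-3.23 ± 0.64, adjusted p = 3.3e-05), Lefty1 (-3.05 ± 0.62, adjusted p = 4.4e-05), Lefty2 (-2.82 ± 0.66, adjusted p = 0.00042) and Nodal (-1.47 ± 0.46, adjusted p = 0.0088). The SerumMinusWINDox libraries disagreed: Lefty1 was 43.0 and 2.29 RPM, Lefty2 28.2 and 0.572 RPM, and Tdgf1 41.4 and 5.15 RPM. Without replicate 2, the lower of them, none of the 4 passed (Tdgf1 -1.84, Lefty1 -1.18, Nodal -0.78, Lefty2 -0.71), and Nodal was also lost without SerumMinusWIN replicate 2 (-1.36). At day 7, with 20.4% of all genes passing, the same comparison was tighter, with Lefty2 at 0 in both Dox libraries (-4.61 ± 0.66), Lefty1 at 10.7 and 6.09 RPM (-3.24 ± 0.62), Tdgf1 at 7.12 and 10.8 RPM (-2.59 ± 0.64) and Nodal at 7.91 and 7.11 RPM (-1.14 ± 0.46). The response to Dox was not called different with WIN for any of the 5 genes at day 9. Of 9989 genes 0.0100% were (1 gene by limma and 0 by edgeR), and 450 had an unadjusted p below 0.05. The intervals were -1.93 to 1.54 for Lefty1 and 0.07 to 3.80 for Lefty2. The mCherry tag stood at a mean of 6287 RPM with SerumMinusWINDox and 233.5 RPM with SerumMinusWIN. It stood at 1292 RPM with Dox and 284 RPM in the control, and its part in this comparison was not tested.

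**Figure D3:**
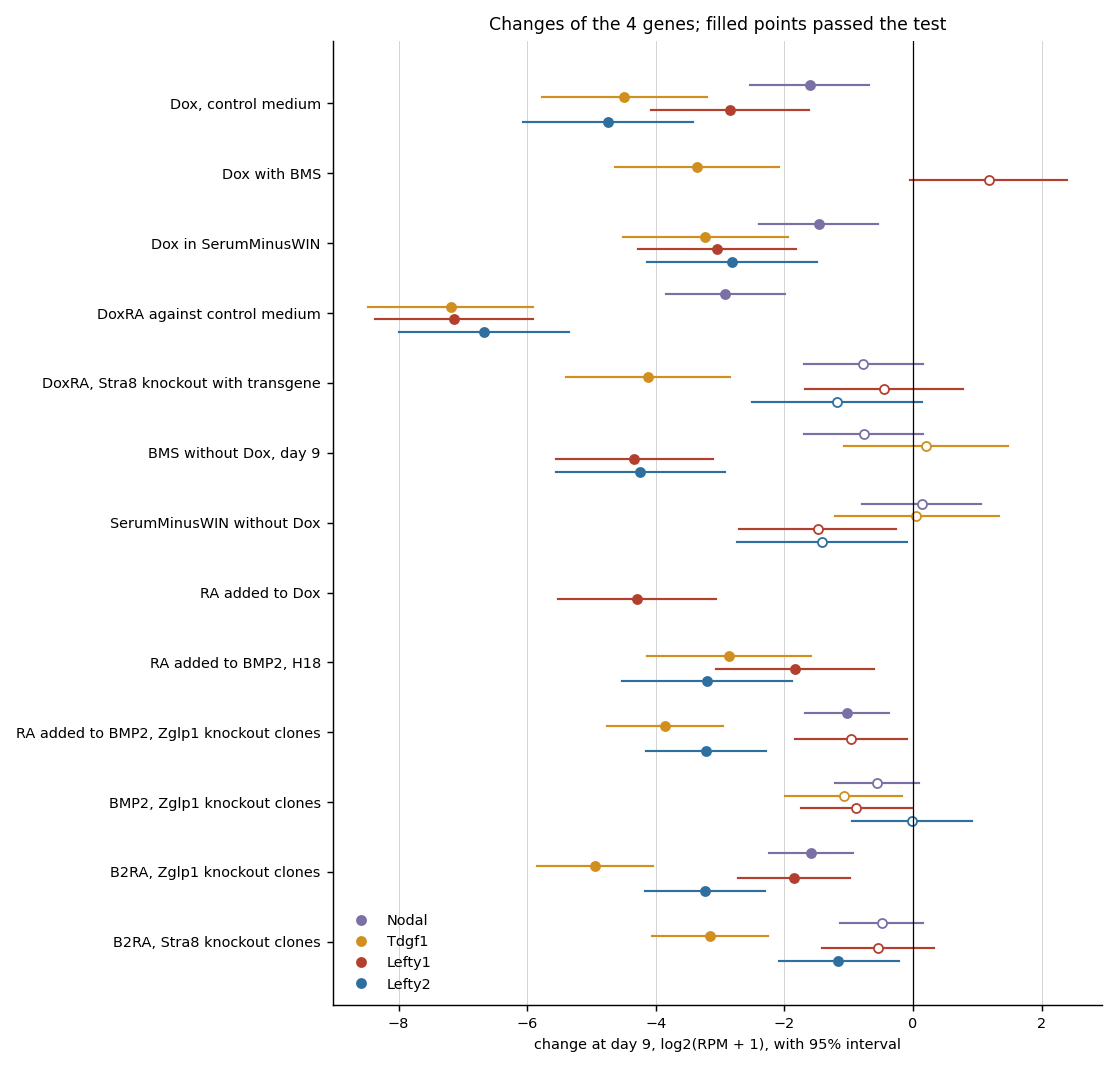
Changes of Nodal, Tdgf1, Lefty1 and Lefty2 at day 9 on the log2(RPM + 1) scale with 95% intervals, for 13 comparisons; filled points passed the test, and genes under the filter are not drawn. Tdgf1 is filled in each row with Dox or RA in which it is drawn and open with BMS, SerumMinusWIN or BMP2 alone, whereas the Lefty genes are filled with BMS.

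The earlier days of Dox and DoxRA cannot be read in the same way, because those OE_A2 libraries of days 4 and 5, and all but 1 of day 7, were made under the first extraction label and their controls under the second. At day 4 Lefty1 was 326 and 346 RPM with Dox against 86.9 and 98.2 RPM in the control (1.85 ± 0.62, adjusted p = 0.029), and Lefty2 was 103 and 143 RPM against 16.6 and 26.4 RPM (2.48 ± 0.66, adjusted p = 0.0063), with 9.61% of all genes passing. H18 cells, which lack the transgene, had high values under the first label too: at day 4 Lefty2 was 192 and 191 RPM under the first label without an inducer and 23.9 and 25.2 RPM under the second with BMP2. Within the second label Dox gave no such rise at day 4, with Lefty2 at 10.2 and 22.8 RPM in BMSDox against 49.6 and 36.7 RPM in BMS (-1.42, adjusted p = 0.13). Treatment and extraction label cannot be told apart for Dox and DoxRA at days 4 to 7 here. At day 0 the similar Lefty2 values of the Zglp1 knockout clones came from the second label in Zko_E5 and from the first in Zko_G10. Within the first label alone, Dox and DoxRA share it at days 4 and 5, and there RA added to Dox lowered Tdgf1 at day 5 from 24.5 and 24.6 RPM to 1.95 and 2.88 RPM (-2.92 ± 0.64, adjusted p = 0.0037, with 0.802% of all genes passing). At day 7, where 1 DoxRA library has the second label, Lefty1 was 2.34 and 16.1 RPM with DoxRA against 45.4 and 181 RPM with Dox (-3.61 ± 0.62, adjusted p = 1.8e-05, 2.18% of genes passing).

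In H18, where BMP2 and RA act on unmodified Zglp1, adding RA to BMP2 lowered Tdgf1 and both Lefty genes at day 9. Tdgf1 went from 10.8 and 15.8 RPM to 1.95 and 0.281 RPM (-2.86 ± 0.64, adjusted p = 0.00041) and Lefty2 from 41.3 and 13.1 RPM to 1.95 and 1.40 RPM (-3.20 ± 0.66, adjusted p = 0.00012). Lefty1 went from 66.7 and 39.7 RPM to 6.84 and 26.7 RPM (-1.83 ± 0.62, adjusted p = 0.021). The Lefty1 fall did not pass without B2RA replicate 1 (-0.92), BMP2 replicate 1 (-1.47) or BMP2 replicate 2 (-2.20). Over 9594 genes 16.0% passed and 6.98% fell. Nodal was 9.81 and 11.6 RPM with BMP2 and 6.19 and 8.70 RPM with B2RA and was under the filter. At day 7 Tdgf1 (-3.39 ± 0.64, adjusted p = 0.00016) and Lefty2 (-2.52 ± 0.66, adjusted p = 0.01) had fallen and Lefty1 gave -0.77 (adjusted p = 0.51), among 4.53% of genes passing, and at days 4 and 5 none of the genes passed (3.46% and 0.218% of all genes did). B2RA of day 4 is 1 library, assumed to vary like the other groups. With BMP2 alone Tdgf1 fell between day 3.5 and day 9, from 71.9 and 42.4 RPM to 10.8 and 15.8 RPM (-2.0 ± 0.64, adjusted p = 0.012, with 19.0% of genes passing). With B2RA over the same days all 4 genes fell, Tdgf1 from 73.0 and 31.9 RPM by 4.67 on the log2 scale (adjusted p = 1.2e-09), Lefty2 by 2.37, Lefty1 by 1.69 and Nodal by 1.39, where 45.7% of 9562 genes passed and 15.9% fell. Feeder and stroma markers stood at 861 and 255 RPM in the B2RA libraries (no marker at 0) and at 151 to 411 RPM with BMP2 (Lum at 0), and pluripotency markers at 120 to 160 RPM against 797 to 1189 RPM. Markers of gonadal soma (6 genes, of which Amh and Nr5a1 were at 0 in both groups) summed to 49.4 to 146 RPM with B2RA and 6.09 to 6.57 RPM with BMP2, and the part of these cells in the result was not tested.

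In the clones labelled Zglp1-/- B2RA lowered all 4 genes. Averaged over Zko_E5 and Zko_G10 at day 9, Tdgf1 changed by -4.94 ± 0.46 (adjusted p = 1.6e-15), Lefty2 by -3.24 ± 0.47 (adjusted p = 3.7e-08), Lefty1 by -1.85 ± 0.44 (adjusted p = 0.00069) and Nodal by -1.58 ± 0.33 (adjusted p = 9.3e-05), where 11.0% of 9980 genes passed and 4.33% fell (5.70% with TMM scaling). Tdgf1 stood at 67.7 and 79.9 RPM in untreated Zko_E5 and at 3.95 and 0 RPM with B2RA, and at 99.6 and 391 RPM in untreated Zko_G10 and at 5.74 and 6.40 RPM with B2RA. In each clone alone Tdgf1, Lefty1 and Lefty2 passed, with 12.4% and 8.04% of all genes passing, while Nodal passed in Zko_E5 (-1.96) and not in Zko_G10 (-1.21). Nodal rests on Zko_E5 B2RA replicate 2, the library with 2.03 RPM against 20.8 RPM in its partner. Without it the averaged change of Nodal was -0.87 and did not pass. With BMP2 alone none of the 6 genes tested passed in these clones, where limma called 1.46% of 9565 genes. Tdgf1 gave -1.08 ± 0.46 (adjusted p = 0.26), and edgeR called it. Adding RA to BMP2 in the clones lowered Tdgf1 (-3.86 ± 0.46, adjusted p = 1.7e-10), Lefty2 (-3.22 ± 0.47, adjusted p = 1.2e-07) and Nodal (-1.03 ± 0.33, adjusted p = 0.019), where Nodal did not pass without that library (-0.31) or without Zko_G10 B2RA replicate 2 (-1.01). Of 9874 genes 7.30% passed there and 2.79% fell (4.03% with TMM scaling). At day 7 B2RA had lowered Tdgf1 (-3.52 ± 0.46, adjusted p = 2.9e-09), Lefty2 (-1.85 ± 0.47) and Lefty1 (-1.49 ± 0.44) in the mean of the clones, with 5.12% of genes passing. By clone, the Lefty genes passed on that day in Zko_E5 (Lefty2 -3.16, Lefty1 -2.75) and not in Zko_G10 (Lefty2 -0.54, Lefty1 -0.23), among 3.11% and 2.31% of genes, and the difference between clones was not tested. Pluripotency markers summed to 627 to 887 RPM in the B2RA libraries of the clones and to 1655 to 1941 RPM in the untreated ones, with none at 0.

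Set beside H18 at the same treatment, the knockout clones had more Tdgf1 and Nodal with BMP2. Tdgf1 was 48.9, 57.9, 57.1 and 62.6 RPM in the clones against 10.8 and 15.8 RPM in H18 (2.03 ± 0.56, adjusted p = 0.0034), and Nodal was 25.6, 23.8, 27.7 and 28.0 RPM against 9.81 and 11.6 RPM (1.22 ± 0.40, adjusted p = 0.014). The groups did not overlap for either gene, and the share of all genes without overlap is not given here. Of 9575 genes 15.6% passed and 6.07% were higher (8.33% with TMM scaling). Neither gene passed when H18 BMP2 replicate 1 was left out (1.78 and 1.12). With B2RA none of the 4 genes tested differed by the test between the clones and H18 at day 9, although 36.4% of 10246 genes did, and edgeR called Nodal. At day 7 with B2RA the mean of the clones had less Lefty1 than H18 (-1.35 ± 0.53, adjusted p = 0.039), among 18.6% of genes passing. Their mean Fst was higher (2.89 ± 0.76, adjusted p = 0.0019), but this came from Zko_E5. Fst was 51.6 and 27.6 RPM in Zko_E5 and 0.813 and 0.909 RPM in Zko_G10, against 0.315 and 0 RPM in H18. It passed the filter only through the Zko_E5 libraries. Line and genotype cannot be told apart in this comparison beyond the use of a pair of clones.

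In OESko_A11, the transgenic clone labelled Stra8-/-, DoxRA lowered Tdgf1, and the Lefty genes responded less than in OE_A2. Stra8 reads did not mark this clone as lacking the gene: they rose from 24.1 and 20.3 RPM in its control to 378 and 352 RPM with DoxRA (3.98 ± 0.69, adjusted p = 3.9e-06), against 376 and 287 RPM and then 1155 and 1519 RPM in OE_A2. At day 9 Tdgf1 stood at 54.7 and 73.0 RPM in the control and at 0.476 and 8.23 RPM with DoxRA (-4.12 ± 0.64, adjusted p = 3e-07). Lefty1 stood at 229 and 266 RPM against 200.0 and 161 RPM (-0.45, interval -1.68 to 0.77), Lefty2 at 74.9 and 47.2 RPM against 24.3 and 27.1 RPM (-1.18, interval -2.50 to 0.14), and Nodal at 21.1 and 21.4 RPM against 11.9 and 12.1 RPM (-0.78, interval -1.70 to 0.15). The values of these 3 genes were lower with DoxRA in every library, but none passed in limma, and edgeR called Lefty2. The share of all genes without overlap between these groups is not given here. Of 9663 genes 20.0% passed and 6.56% fell (10.1% with TMM scaling). The mCherry tag stood at a mean of 4841 RPM in these DoxRA libraries and 3165 RPM in those of OE_A2. Before day 9 it was lower in OESko_A11 than in OE_A2, at 499.8 against 1503 RPM at day 4, 499.6 against 2001 RPM at day 5 and 1321 against 3388 RPM at day 7, and its part in the difference below was not tested.

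Tested directly, the response to DoxRA differed between OESko_A11 and OE_A2 for all 4 genes. The difference was 6.69 ± 0.87 for Lefty1 (adjusted p = 5e-09), 5.48 ± 0.94 for Lefty2 (adjusted p = 4.1e-06), 3.07 ± 0.91 for Tdgf1 (adjusted p = 0.0091) and 2.14 ± 0.66 for Nodal (adjusted p = 0.011), positive values meaning a smaller fall in OESko_A11. Over 10372 genes 20.0% passed and 14.8% were positive (12.2% with TMM scaling), so a difference of this kind was common. Both Lefty differences passed with any 1 library left out. The Tdgf1 difference was 1.75 without OESko_A11 DoxRA replicate 2 and 2.62 without OE_A2 control replicate 1, and passed in neither case. Nodal gave 0.89 without OE_A2 DoxRA replicate 2 and 1.89 without OE_A2 control replicate 1, and passed in neither case. At day 7 the difference was 4.64 ± 0.87 for Lefty1, 3.38 ± 0.94 for Lefty2 and 3.24 ± 0.91 for Tdgf1 (21.1% of genes passing), but there 1 of the OE_A2 DoxRA libraries carries the first extraction label. The comparison is of 1 clone with 1 clone, so the genotype and the clone cannot be told apart. Feeder and stroma markers summed to 546 to 726 RPM in OESko_A11 DoxRA cells and 263 to 349 RPM in their control (Lum at 0 in both), and pluripotency markers to 424 to 508 RPM against 1388 to 1459 RPM.

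**Figure D4:**
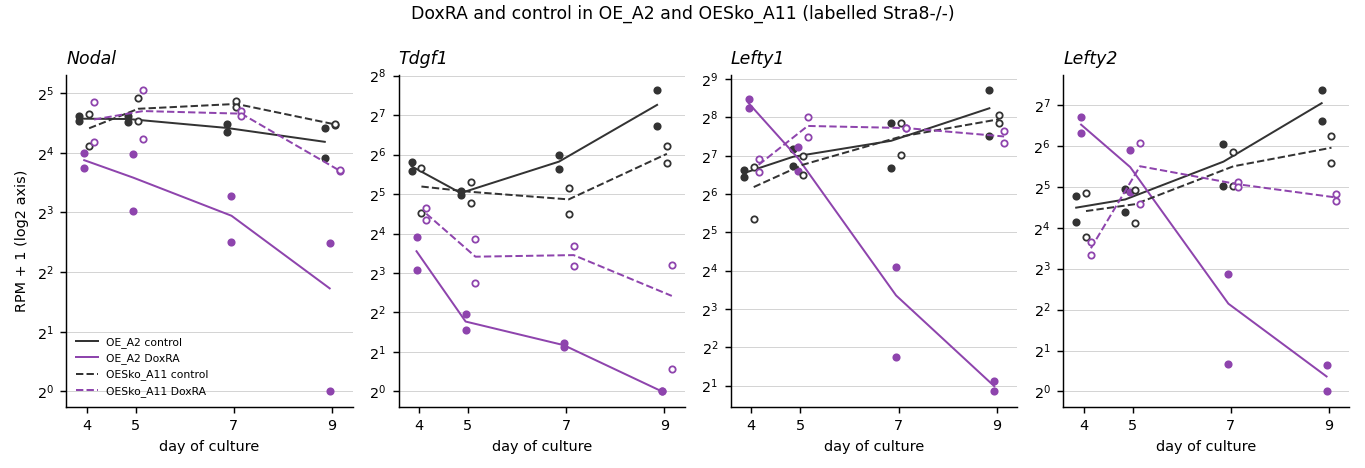
Nodal, Tdgf1, Lefty1 and Lefty2 by day in control (black) and DoxRA (purple) cells of OE_A2 (filled points, solid lines) and OESko_A11 (open points, dashed lines), in RPM + 1 on a log2 axis. At day 9 Lefty1 is 1.16 and 0.797 RPM with DoxRA in OE_A2 and 200.0 and 161 RPM in OESko_A11.

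In the clones labelled Stra8-/- without the transgene, B2RA lowered Tdgf1, while Lefty1 and Nodal did not pass. Stra8 reads rose with B2RA here too (5.24 ± 0.49, adjusted p = 1e-15), and the clones stood apart in them, at 423 and 688 RPM in Sko_B6 and 52.7 and 67.0 RPM in Sko_F6. With B2RA at day 9, Tdgf1 fell in the mean of Sko_B6 and Sko_F6 (-3.16 ± 0.46, adjusted p = 1.1e-08) from 73.9 and 124 RPM to 4.71 and 9.61 RPM in Sko_B6 and from 41.3 and 90.2 RPM to 7.32 and 10.3 RPM in Sko_F6. Lefty1 gave -0.55 ± 0.44 (adjusted p = 0.31) and Nodal -0.49 ± 0.33 (adjusted p = 0.22). Lefty2 fell by 1.16 ± 0.47 on the log2 scale (adjusted p = 0.036), but the clones disagreed, with -1.87 in Sko_B6, which passed (17.9% of genes did), and -0.44 in Sko_F6, which did not (18.7% did), and the call was lost without Sko_B6 control replicate 1 or 2, Sko_B6 B2RA replicate 2, Sko_F6 control replicate 1 or Sko_F6 B2RA replicate 1 (changes of -0.61 to -1.18). In all, 20.8% of 10111 genes passed and 5.08% fell, or 9.12% with TMM scaling, which moved the median of all genes by -0.30. In Sko_F6 Lefty1 was 183 and 166 RPM untreated and 138 and 163 RPM with B2RA. At day 7 Tdgf1 was the one gene of the 6 tested that passed (-2.86 ± 0.46, adjusted p = 1e-06, with 7.95% of genes passing). Whether the response to B2RA differs between Stra8-/- and H18 cells was not tested, since H18 has no untreated library at day 9.

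A wider list of 39 genes of the pathway was read, 38 of them in the table, and it was tested as far as the filter allowed. The list takes in members of the 8, such as Tdgf1 and both Lefty genes. Its counts and medians therefore include changes already given above and are not separate from them. Without an inducer, 6 of 27 tested rose from day 4 to day 9 and none fell (9.26% of all genes rose, median 0.39 against 0.07 over all genes), among them the repressor Tgif1 (2.01 ± 0.19) and the antagonist Fstl3 (1.01 ± 0.20). With Dox at day 9, 10 of 24 tested fell and none rose (9.38% of all genes fell), with a median change of -0.86 against 0.06 over all genes. Among the ligands Gdf3, a Nodal-related factor that shares its receptors, fell (-1.48 ± 0.30, adjusted p = 5.1e-05). Of the receptors Acvr2b fell (-1.22 ± 0.36). The inhibitory Smad7 (-1.24 ± 0.46), Tgif1 (-1.41 ± 0.46) and the target Eomes (-1.95 ± 0.60) fell as well. DoxRA lowered 15 of 24 and raised 1 (22.5% of all genes fell, median -1.75 against 0.11 over all genes). There Gdf3 went from a mean of 88.5 to 3.14 RPM (-4.71 ± 0.30, adjusted p = 1.6e-26) and Pcsk6, a convertase that cleaves the Nodal precursor, from 52.5 to 2.74 RPM (-4.39 ± 0.41, adjusted p = 6.6e-17), while Acvr2a, an activin receptor, rose (1.11 ± 0.44, adjusted p = 0.025). Pcsk6 was not called with Dox alone, and RA added to Dox lowered Pcsk6 by 3.46 and Gdf3 by 3.23 on the log2 scale among 15 tested (1 higher and 3 lower, with 10.6% of all genes lower, median -0.16 against 0.08).

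BMS alone lowered 3 of 24 genes of the list, among them both Lefty genes (1.91% of all genes fell, median -0.15 against -0.13 over all genes). Dox with BMS lowered 2 of 21 (Tdgf1 and Acvr2b, with 6.39% of all genes lower, median -0.09 against 0.23), and SerumMinusWIN changed 0 of 24 in limma. Dox in SerumMinusWIN lowered 7 of 22 (9.71% of all genes fell, median -0.89 against 0.01), including Gdf3 (-1.87 ± 0.30) and Smad3 (-1.17 ± 0.45). In H18, RA added to BMP2 lowered 6 of 21 and raised 1 (6.98% of all genes fell, median -0.22 against 0.07), with Gdf3 at -3.04 ± 0.30 and Pcsk6 at -1.78 ± 0.41. B2RA lowered 6 of 26 and raised 2 in the Zglp1 knockout clones (4.33% of all genes fell and 6.63% rose, median 0.06 against 0.11), where Inha, a subunit of the inhibins, which oppose activin, and also a marker of gonadal soma, rose (2.43 ± 0.42) and Gdf3 fell (-1.03 ± 0.21). It lowered 3 of 27 and raised 2 in the Stra8 knockout clones (5.08% fell and 15.7% rose, median 0.06 against 0.23), where Inha (1.93 ± 0.42) and Smad7 (1.11 ± 0.33) rose and the co-receptor Cfc1 fell (-1.64 ± 0.38). With B2RA the Zglp1 knockout clones held more Gdf3 (2.80 ± 0.26, adjusted p = 1.3e-16), Pcsk6 (2.13 ± 0.35) and Acvr2b (1.79 ± 0.31) than H18, among 5 higher and 2 lower of 23 tested (15.4% and 21.0% of all genes, median 0.49 against -0.09). DoxRA in OESko_A11 lowered 1 of 23, Tdgf1 (6.56% of all genes fell, median -0.33 against 0.21), and its difference from OE_A2 was positive for 10 of 24 and negative for 0 (14.8% and 5.24% of all genes, median 1.23 against 0.17).

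Fst was low in most libraries and high in some, at times in 1 library of a pair and at times in both. Fst rose from day 4 to day 9 without an inducer (1.63 ± 0.36, adjusted p = 7.5e-05), most plainly in Zko_E5, where it was 1.13 and 4.26 RPM at day 4 and 45.8 and 22.0 RPM at day 9 (3.29 ± 0.88, adjusted p = 0.0042, with 13.4% of genes passing). In both tests Fst passed the filter only through libraries of day 9, where it was high. By line it could be tested in 1 of 6, Zko_E5. With B2RA at day 9 the libraries of some pairs were far apart, at 49.5 and 0.561 RPM in H18 and 49.8 and 3.70 RPM in Zko_G10. Both libraries were high in Sko_B6 with B2RA at day 9 (20.4 and 51.5 RPM) and in Zko_E5 with B2RA at day 7 (51.6 and 27.6 RPM). In all 5 lines given B2RA the library with more Fst at day 9 had the larger sum of feeder and stroma markers, at 861 against 255 RPM in H18 and 760 against 512 RPM in Zko_G10, and the part of those cells in the Fst values was not tested. Fst overlaps an antisense gene, Gm47040, and the strand setting of the counting is not stated, so reads of the pair cannot be told apart. Smad2 kept within narrow bounds, yet its small shifts often had low p-values: with B2RA it gave 0.76 ± 0.15 in the Stra8 knockout clones (adjusted p = 8.1e-06) and 0.57 ± 0.15 in the Zglp1 knockout clones (adjusted p = 0.0016), and with Dox on BMS 0.86 ± 0.21 (adjusted p = 0.00057), each under the size threshold. With TMM scaling the median of all genes shifts by -0.30, -0.16 and -0.28 in these comparisons.

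Across the 98 PGCLC groups the closest match to Lefty1 among 9217 genes was Lefty2, and the reverse held too (Pearson r of 0.843 over group means of log2(RPM + 1)). Other genes near Lefty1 were Ly6e (0.666), Fblim1 (0.649) and Peg12 (0.625), and near Lefty2 were Il17rd (0.659) and Rab18 (0.643). Tdgf1 was nearest to Pdk1 (0.841), Tfpi (0.835), Tor3a (0.820), Ctbp2 (0.811) and Gnl3l (0.809), and its r was 0.61 with Lefty2 and 0.47 with Lefty1. Nodal was nearest to Cenpt (0.872), Ror2 and Rangap1 (both 0.832), and Vars and Slc28a1 (both 0.829), and its r with Tdgf1 was 0.39. The groups share lines, days and extraction labels, so these are descriptions. Lefty2 and Lefty1 lie on the same strand of chromosome 1 with 35918 bases between them. Their longest protein-coding transcripts were 80.2% identical over 1647 columns of a local alignment and shared 460 words of 25 bases, but none in their last 500 bases. Whether reads of one were counted for the other was not tested.

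**Figure D5:**
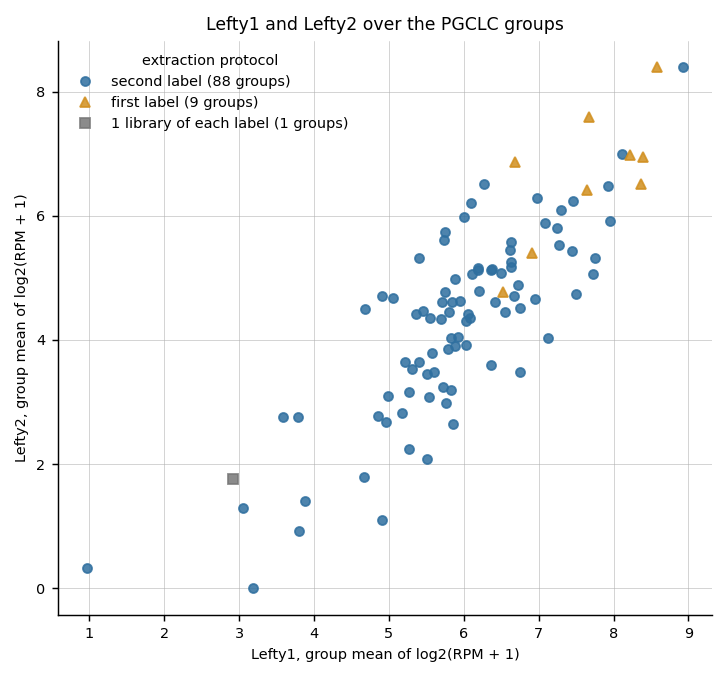
Lefty1 against Lefty2, each point the mean of log2(RPM + 1) in 1 of the 98 PGCLC groups, by extraction label (88 groups of the second, 9 of the first and 1 with a library of each). Groups with more Lefty1 have more Lefty2 (r of 0.843), and most groups of the first label lie toward the upper right.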

How the data were processed

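The deposited table gives 1 RPM value per gene and library. Per the labels' protocols the libraries hold the 3' ends of mRNA, were amplified from 1 ng of RNA each and were read on a NextSeq 500. The authors scaled the reads on endogenous genes to 1000000 in each library. In the libraries with the Zglp1 transgene the 3 transgene rows come on top of that sum, so the deposited signal of such a column passes 1000000. Per the submitters' processing notes, the build was mm10 and the tools were HTSeq 0.9.1, TopHat2 2.1.0, cutadapt 1.9.1, SAMtools 1.3 and Bowtie 1.1.2. The gene annotation and strand setting are not given in the sources used here. Positions are from GENCODE M21.

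Of 195 value columns 194 were matched to a labelled sample by name, and 1 was not used. 3 lines with an extra empty cell were realigned. Low values are whole multiples of 1 read (100% of values within 0.05 of a whole read), so reads were recovered from the RPM. Reads carry no molecular identifiers here, so floors cover counting error only. Replicate libraries correlated at 0.878 to 0.984 over genes, and each of 93 pairs differed by more than sampling noise (chi-square per degree of freedom 1.62 to 60.11).

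One model with a mean for each of 98 PGCLC groups was fitted to log2(RPM + 1) of 191 libraries with limma 3.58.1 (trend and robust options, 12174 genes, 93 residual degrees of freedom) in R 4.3.3, after a check on simulated data. A gene was tested in a comparison when at least 2 of its libraries reached 10 RPM, and was called at an adjusted p under 0.05 and a change of at least 1. In the simulated comparison of Dox with control medium, 17.9% of genes changed 2-fold were called, 65.2% changed 4-fold and 100% changed 16-fold. A change that did not pass is therefore not shown to be absent. Differences between responses were tested as contrasts of contrasts in the same model. Alternatives were pseudocounts of 0.5 and 5, no filter, TMM factors, only the groups compared, a replicate block, edgeR 4.0.16 on the recovered reads, and each of 68 libraries left out in turn. The last was repeated with the genes that all libraries had put to the test, an alternative chosen after seeing the data.

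The text names the 8 members in each comparison, pathway genes that were called, the RA response genes for BMS, Zglp1, Stra8 and transgene checks, and the 5 genes most like each of 4 members by Pearson correlation over group means, among genes whose highest group mean is at least 20 RPM, leaving out predicted genes, Rik clones and pseudogenes. Some genes that these rules take in are not reported here. Members and lists were chosen with earlier results of these data known. Stra8 and Zglp1 genotypes are those of the samples' labels.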

Additional observations from a re-analysis of the deposited data

Results flagged for a closer look

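Each value here is a difference between the responses of a gene under 2 conditions on the log2(RPM + 1) scale that passed the limma test of the difference itself.

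With BMS the response to Dox at day 9 differed by 4.03 for Lefty1 and 4.67 for Lefty2, and without OE_A2 control replicate 1 neither passed (3.42 and 4.29). Lefty2 reached the filter there only with the control libraries, the group where it was high. At day 4 it differed for Lefty2 by -3.90 with BMS and by -4.15 with WIN (4.46% and 0.0643% of all genes passing), and in both the Dox libraries in control medium have the first extraction label and the other libraries the second.

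Between OESko_A11 and OE_A2 the response to DoxRA at day 9 differed for Lefty1 by 6.69, for Lefty2 by 5.48, for Tdgf1 by 3.07 and for Nodal by 2.14. At day 7 it differed for Lefty1 by 4.64, for Lefty2 by 3.38 and for Tdgf1 by 3.24. Among other genes of the pathway it differed at day 9 for the ligand Gdf3 by 4.15, for the convertases Pcsk6 by 4.14 and Furin by 2.26, for Eomes by 3.73 and for the receptor Acvr2b by 1.48. Of all genes 20.0% passed at day 9 and 21.1% at day 7, and edgeR called neither Furin (0.88) nor Acvr2b (1.06). Each of these differences is between 1 clone and 1 clone, and OESko_A11 is labelled Stra8-/- but gave Stra8 reads.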

How the results depend on the processing

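No change of a called member reversed under any alternative run. Under the alternatives other than leaving a library out, 262 values of called members stayed past the thresholds and 17 did not (10 with only the groups compared in the fit, 5 with a pseudocount of 5 and 2 with edgeR), and none was lost with TMM factors, a pseudocount of 0.5, no filter or the replicate block. The lost calls were of Nodal with a pseudocount of 5 for RA added to BMP2 in the Zglp1 knockout clones (-0.74), for those clones against H18 with BMP2 (0.99) and for the Stra8 difference (1.03), of Lefty2 for B2RA in the Stra8 knockout clones (-0.91) and of Fst from day 4 to day 9 (0.95), and with edgeR of Nodal for RA added to BMP2 in the clones (-0.67) and for the Stra8 difference (1.39). Of the values of other named genes 388 stayed past them and 45 did not, among them Acvr2a with DoxRA (0.99 with a pseudocount of 5), and with a library left out and the same genes tested 298 stayed and 86 did not. The cause of these losses was not tested.

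The number of the 8 genes called changed as follows. Without a filter it was 4 for RA added to Dox (1 with the filter), and 1 for BMS at day 7 and 1 at day 5 (0 with it). With only the groups compared it was 1 for BMS added to Dox, 1 for Dox in SerumMinusWIN (4 in the fit of all libraries), 1 for RA added to BMP2 in H18, 1 for B2RA in the Stra8 knockout clones, and 2 each for DoxRA in OESko_A11, the Stra8 difference and day 3 against day 0. With edgeR it was 1 for BMP2 in the Zglp1 knockout clones (Tdgf1), 1 for those clones against H18 with B2RA (Nodal) and 2 for DoxRA in OESko_A11. With a pseudocount of 5 it was 1 for the clones against H18 with BMP2 and 1 for B2RA in the Stra8 knockout clones.

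With each library left out in turn the number ran from 1 to 4 for Dox, 0 to 4 for DoxRA, 0 to 1 for RA added to Dox, 1 to 3 for BMS, 1 to 2 for Dox with BMS, 0 to 4 for Dox in SerumMinusWIN, 0 to 2 for the BMS difference, 0 to 1 for the WIN difference, 0 to 3 for RA added to BMP2 in H18, 0 to 2 for the Zglp1 knockout clones against H18 with BMP2 and 0 to 1 with B2RA, 1 to 2 for B2RA in the Stra8 knockout clones, 0 to 1 for DoxRA in OESko_A11 and 2 to 4 for the Stra8 difference. With 1 library left in a group fewer genes reach the filter. With the genes tested as with all libraries the lowest number was 3 for Dox, 4 for DoxRA, 1 for RA added to Dox, 2 for BMS, 2 for RA added to BMP2 in H18 and 1 for DoxRA in OESko_A11. A lone library is assumed to vary like the other groups.

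Counts over all genes moved more. Without a filter they were 6980 for DoxRA (4584 with it), 2591 for RA added to Dox (1355), 483 for BMS at day 9 (222), 54 at day 7 (11) and 30 at day 5 (8), 3134 for Dox with BMS (1969), 1187 for BMS added to Dox (694), 57 for SerumMinusWIN (2), 408 for the BMS difference (164), 99 for the WIN difference (1), 2377 for RA added to BMP2 in H18 (1538) and 1296 in the Zglp1 knockout clones (721), 511 for BMP2 (140) and 1976 for B2RA (1094) in those clones, 2433 for them against H18 with BMP2 (1496), 3370 for B2RA in the Stra8 knockout clones (2103), 3227 for DoxRA in OESko_A11 (1935), 1745 for day 9 against day 4 (1085) and 414 for day 3 against day 0 (253). With only the groups compared they were 514 for RA added to Dox, 13, 2, 0 and 0 for BMS at days 9, 7, 5 and 4 (17 at day 4 in the fit of all libraries), 0 for SerumMinusWIN, 77 for the BMS and 0 for the WIN difference, 409 for RA added to BMP2 in H18 and 314 in the Zglp1 knockout clones, 80 for BMP2 and 650 for B2RA in those clones, and 1281 for the Stra8 difference (2079). With a pseudocount of 5 they were 9 for SerumMinusWIN, 273 for the BMS and 8 for the WIN difference, 644 for B2RA and 352 for RA added to BMP2 in the Zglp1 knockout clones, and 510 for day 9 against day 4. With a pseudocount of 0.5 there were 3 for the WIN difference and 6 for BMS at day 7, and with edgeR 12 for SerumMinusWIN, 0 for the WIN difference and 27 for BMS at day 7. With TMM factors the WIN difference had 2. Leaving out 1 library gave as few as 8 for the BMS difference (without OE_A2 control replicate 1), 145 for BMS added to Dox (without BMSDox replicate 1), 1374 for Dox (without Dox replicate 1), 1130 for Dox in SerumMinusWIN (without its Dox replicate 2), 304 for RA added to BMP2 in H18 (without BMP2 replicate 2), 608 for the Zglp1 knockout clones against H18 with BMP2 (without H18 replicate 1) and 946 for DoxRA in OESko_A11 (without DoxRA replicate 1).

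Replicate numbers are shared between groups. Deviations of same-numbered libraries correlated at -0.23 to 0.44, above 0.1 in some comparisons (0.44 for BMS at day 5, 0.33 for SerumMinusWIN) and not in others, each with 2 pairs of libraries per pair of groups, and no label says that a number marks a shared batch, so the numbers were not taken to pair the libraries. With a replicate block, 4 genes of the 8 were called for Dox and 4 for DoxRA, as without it, no call of a member was lost, and the WIN difference had 2 genes in all. Depth limits the low end, where 1 read is worth 0.192 to 1.14 RPM.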

Other observations

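Medium without serum and without WIN was sampled once per day, with no replicate. In these SerumMinus libraries of OE_A2, Tdgf1 measured 17.5 RPM at day 4, 29.8 RPM at day 5, 52.9 RPM at day 7 and 136 RPM at day 9. Lefty2 measured 6.11, 6.92, 25.3 and 57.9 RPM on those days and Lefty1 35.2, 53.2, 101 and 135 RPM, while Nodal measured 18.9, 18.6, 23.3 and 16.1 RPM. The order of the days is the same for Tdgf1, Lefty1 and Lefty2, and the values carry no test.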
